A study of Mus musculus with 24 samples.

Results

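Members of 3 families of extracellular metalloproteases and inhibitors, together with 1 of their substrates, were followed in bone marrow cells of a mouse model of cherubism. Cherubism is an inherited disorder in which jaw bone is replaced by fibrous tissue rich in osteoclast-like giant cells. The members were the protein-coding genes of the count tables whose symbol starts with Mmp (matrix metalloproteases), Adamts (proteases with thrombospondin repeats) or Timp (tissue inhibitors of metalloproteases) directly followed by a digit, leaving out Mmp9, and Comp (cartilage oligomeric matrix protein) was added as a substrate. This gave 45 genes, namely 21 Mmp, 19 Adamts and 4 Timp genes and Comp, of 54232 gene identifiers in the tables.

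RNA was sequenced from cells sorted out of bone marrow stromal cultures on day 7, in 24 libraries that fall into 4 groups of 6. The groups were mesenchymal cells (CD45-Sca1+) of Sh3bp2KI/KI mice, mesenchymal cells of wild-type mice, hematopoietic cells (CD45+Sca1+) of Sh3bp2KI/KI mice and hematopoietic cells of wild-type mice. The genotypes are called KI (titled CBM in the labels) and WT here, and all mice were female C57BL/6 aged 6 to 8 weeks. The knock-in changes Sh3bp2, an adaptor protein of immune receptor signalling, in every cell of the mouse, and both populations grew in 1 mixed culture before sorting. Nothing in the labels tells whether libraries of 1 group are separate animals or separate cultures, and p-values here therefore cover only the spread among these libraries, which may be technical.

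MMPs are zinc proteases that are made as inactive precursors and between them cleave collagens, elastin and most other proteins of the extracellular matrix. ADAMTS proteases have narrower substrates, such as the proteoglycans of cartilage, the N-propeptides of fibrillar procollagens or von Willebrand factor. TIMPs bind to the active site of MMPs and of some ADAMTS proteases. In bone marrow the stromal and osteoblast lineage makes collagenase and membrane-bound MMPs, while macrophages, neutrophils and osteoclasts carry a set of their own.

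Promoter windows, each reaching from 250 bases before to 50 bases after a RefSeq start site (GRCm38.p6), were found for 31 of the 45 members. The 5 shown belong to genes on which the results below turn. Mmp13 and Mmp27 lie in the same gene cluster on chromosome 9 and had opposite population patterns, while Mmp14, Timp3 and Adamts14 differed between genotypes. Capitals mark matches, on either strand, to any of 4 short motifs, and matches to different motifs did not overlap in these windows. The AP-1 motif searched was TGANTCA. The TATA box was searched as the letters TATAAA. For the GC box bound by Sp1, the searched letters were GGGCGG. For RUNX factors, which include the osteoblast regulator Runx2, they were TGTGGT.
Mmp13 (chr9:7272264-7272563, plus strand): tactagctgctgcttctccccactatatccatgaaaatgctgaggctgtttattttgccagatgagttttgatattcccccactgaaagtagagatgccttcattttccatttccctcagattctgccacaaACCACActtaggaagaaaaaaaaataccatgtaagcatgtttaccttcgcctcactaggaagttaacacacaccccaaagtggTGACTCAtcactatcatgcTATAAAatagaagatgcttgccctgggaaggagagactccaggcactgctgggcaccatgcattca
Mmp27 (chr9:7571146-7571445, plus strand): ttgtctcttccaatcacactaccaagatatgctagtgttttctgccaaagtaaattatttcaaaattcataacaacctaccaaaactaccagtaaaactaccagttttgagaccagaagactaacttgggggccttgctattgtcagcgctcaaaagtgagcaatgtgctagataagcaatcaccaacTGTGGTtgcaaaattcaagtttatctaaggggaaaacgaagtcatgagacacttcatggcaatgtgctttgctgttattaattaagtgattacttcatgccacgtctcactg
Mmp14 (chr14:54431348-54431647, plus strand): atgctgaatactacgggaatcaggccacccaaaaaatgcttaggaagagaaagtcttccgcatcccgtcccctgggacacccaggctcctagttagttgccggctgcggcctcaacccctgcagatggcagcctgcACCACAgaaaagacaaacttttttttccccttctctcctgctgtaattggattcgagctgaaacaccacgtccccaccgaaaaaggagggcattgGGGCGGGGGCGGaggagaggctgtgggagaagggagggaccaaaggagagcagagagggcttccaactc
Timp3 (chr10:86300162-86300461, plus strand): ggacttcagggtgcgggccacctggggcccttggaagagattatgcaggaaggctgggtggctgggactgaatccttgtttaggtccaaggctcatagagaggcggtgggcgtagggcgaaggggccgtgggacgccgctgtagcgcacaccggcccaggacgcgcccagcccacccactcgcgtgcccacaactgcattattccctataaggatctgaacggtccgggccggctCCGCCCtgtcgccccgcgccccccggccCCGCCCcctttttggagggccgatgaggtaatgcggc
Adamts14 (chr10:61273370-61273669, minus strand): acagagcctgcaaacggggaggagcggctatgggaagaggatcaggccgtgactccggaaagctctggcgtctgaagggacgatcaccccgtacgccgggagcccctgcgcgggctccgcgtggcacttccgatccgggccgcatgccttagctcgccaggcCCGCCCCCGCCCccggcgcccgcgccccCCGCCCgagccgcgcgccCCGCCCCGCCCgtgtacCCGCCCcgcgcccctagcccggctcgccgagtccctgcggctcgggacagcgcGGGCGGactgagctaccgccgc

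The Mmp13 window held a RUNX match, an AP-1 match and a TATA box, starting 118, 35 and 16 bases before the start site. The Mmp27 window held a RUNX match 62 bases before it, Mmp14 a RUNX match and 2 GC boxes, Timp3 2 GC boxes and Adamts14 7 GC boxes. Over all 34 member windows, the AP-1 letters stood in 7, or 20.6%, against 7.81% of all 32851 promoter windows. These 7 windows all belonged to the chromosome 9 cluster (Mmp13, Mmp12, Mmp1b, Mmp3, Mmp10, Mmp20 and Mmp7). A TATA box stood in 29.4% of member windows and 13.6% of all windows, a GC box in 52.9% and 35.7%, and a RUNX match in 17.6% and 16.8%. These matches describe the letters of the windows and are not shown to be bound.

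Library totals ran from 9875390 to 15826711 counts, with a mean of 13357727. Levels are given as CPM, the counts of a gene scaled to a common library size, after TMM scaling over the 24 libraries, and a gene is called in a comparison when edgeR's quasi-likelihood test gives it a Benjamini-Hochberg adjusted p under 0.05. By their names the count files form 2 sets, each holding 3 libraries per group, and the set was a term in every fit. The sorted populations were checked by markers. The 16 leukocyte markers summed to between 36.7 and 157 CPM in mesenchymal libraries and to between 14070 and 29100 CPM in hematopoietic ones, although Itgam, a myeloid integrin, was listed at 0 in all 24. The 21 stromal markers summed to between 37170 and 76210 CPM in mesenchymal libraries and were also present in hematopoietic ones, at 2386 to 14720 CPM.

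Members fell into 3 classes of abundance. In 26 of them the highest group mean reached 10 CPM. Another 6 (Adamts3, Adamts15, Adamts17, Adamts18, Mmp15 and Comp) had their highest mean between 1 and 10 CPM, and the remaining 13 (Adamts8, Adamts13, Adamts19, Adamts20, Mmp1b, Mmp3, Mmp7, Mmp10, Mmp20, Mmp21, Mmp24, Mmp25 and Timp4) stayed under 1 CPM in every group. Stromelysin-1 (Mmp3), matrilysin (Mmp7), the enamel protease Mmp20 and Timp4 were thus near or at 0 counts in these cultures.

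**Figure D1:**
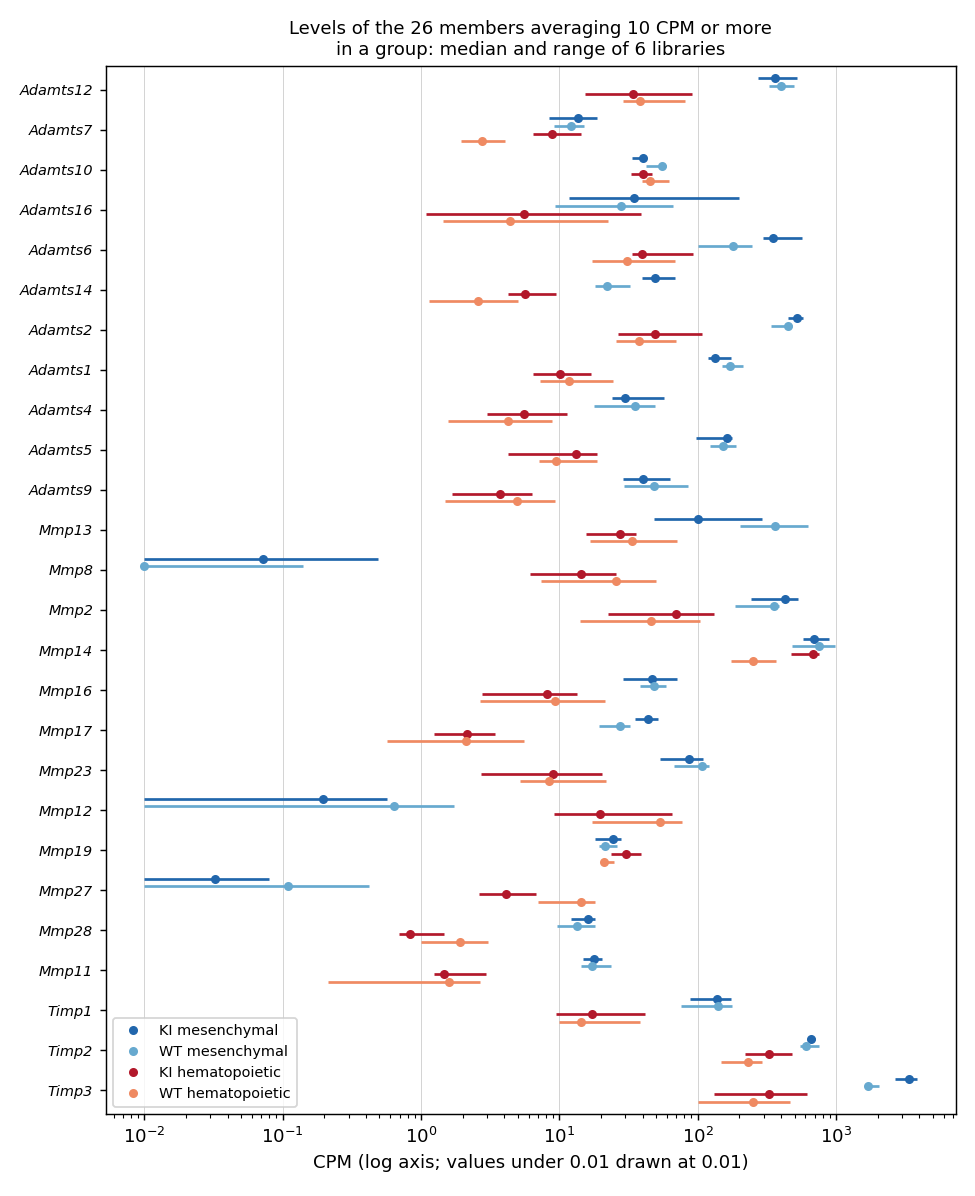
Levels of the 26 members whose mean reached 10 CPM in at least 1 group, as the median (point) and range (line) of 6 libraries per group, on a logarithmic CPM axis. Most members have the points of the mesenchymal groups to the right of the hematopoietic ones, while Mmp8, Mmp12 and Mmp27 show the opposite.

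The sorted populations differed in most members. In WT cells, 26 of the 32 members tested were higher in mesenchymal than in hematopoietic cells and 3 were lower, where 35.4% and 38% of all 15389 genes tested were called in these directions. In KI cells, 24 were higher and 5 lower, against 33.9% and 39.1% of all genes. The median log2 fold change of mesenchymal over hematopoietic cells was 2.59 over the tested members in KI and 2.33 in WT, beside -0.0659 in KI and -0.0291 in WT over all tested genes.

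In mesenchymal cells, inhibitors were the most abundant members per length of transcript. Timp3, the inhibitor that stays bound to the matrix, had 402 CPM per kilobase in KI and 213 CPM per kilobase in WT mesenchymal cells, ahead of Timp2 (171 and 158 CPM per kilobase) and Timp1 (149 CPM per kilobase in each). In hematopoietic cells Mmp14 had 110 CPM per kilobase in KI and 41.9 CPM per kilobase in WT, above Timp2 (85.9 CPM per kilobase) in KI and below it (56.2 CPM per kilobase) in WT. On the CPM scale, Timp3 averaged 3276 ± 438 in KI and 1734 ± 161 in WT mesenchymal cells, and 384 ± 189 in KI and 272 ± 150 in WT hematopoietic cells (SD, n = 6 in this and all following group means). Timp1 averaged 133 ± 29.02 CPM in KI and 132 ± 36.4 CPM in WT mesenchymal cells, and 21.1 ± 11.1 CPM in KI and 18.8 ± 11 CPM in WT hematopoietic cells. Timp2, which also takes part in activating Mmp2 on the cell surface, was the inhibitor with the smallest population difference. It averaged 666 ± 23.4 CPM in KI and 616 ± 73.8 CPM in WT mesenchymal cells, and 335 ± 94.7 CPM in KI and 219 ± 55.2 CPM in WT hematopoietic cells, with log2 fold changes of 0.99 in KI and 1.49 in WT.

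Among the collagenases, Mmp13 and Mmp8 split between the populations. Mmp13, the main interstitial collagenase of mouse bone and cartilage, averaged 137 ± 97.3 CPM in KI and 390.1 ± 146 CPM in WT mesenchymal cells, and 25.9 ± 8.73 CPM in KI and 38.8 ± 18.4 CPM in WT hematopoietic cells. Mmp8, the neutrophil collagenase, averaged 0.127 ± 0.183 CPM in KI and 0.0232 ± 0.0568 CPM in WT mesenchymal cells, and 14.7 ± 7.48 CPM in KI and 25.8 ± 15.9 CPM in WT hematopoietic cells. The gelatinase Mmp2, which degrades denatured collagen and basement membrane, was called higher in mesenchymal cells of each genotype. Its means were 414 ± 114 CPM in KI and 309 ± 97.4 CPM in WT mesenchymal cells, and 67.9 ± 36.5 CPM in KI and 50.4 ± 30.3 CPM in WT hematopoietic cells.

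Mmp14, the membrane-bound protease that activates pro-Mmp2 and cleaves fibrillar collagen at the cell surface, was high in both populations. Its mean was 706 ± 133 CPM in KI and 737 ± 197 CPM in WT mesenchymal cells, and 658 ± 102 CPM in KI and 249.6 ± 71.8 CPM in WT hematopoietic cells. The other membrane-associated members in this class were called higher in mesenchymal cells of each genotype. Mmp16 averaged 47.7 ± 13.8 CPM in KI and 47.6 ± 8.14 CPM in WT mesenchymal cells, and 8.08 ± 3.80 CPM in KI and 11.5 ± 7.72 CPM in WT hematopoietic cells. Mmp17 averaged 43.7 ± 6.99 CPM in KI and 26.8 ± 5.39 CPM in WT mesenchymal cells, and 2.19 ± 0.785 CPM in KI and 2.50 ± 1.76 CPM in WT hematopoietic cells. Mmp23 averaged 84.2 ± 24.9 CPM in KI and 100.5 ± 20.8 CPM in WT mesenchymal cells, and 9.84 ± 5.84 CPM in KI and 10.6 ± 5.99 CPM in WT hematopoietic cells. Among the tested membrane-bound members, Mmp14 had the smallest fitted population difference in each genotype (log2 fold change 0.10 in KI and 1.53 in WT).

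The secreted members without a collagenase role were divided. Stromelysin-3 (Mmp11) averaged 17.5 ± 2.11 CPM in KI and 17.95 ± 3.36 CPM in WT mesenchymal cells, and 1.78 ± 0.706 CPM in KI and 1.61 ± 0.913 CPM in WT hematopoietic cells. Mmp28 (epilysin) averaged 15.5 ± 2.03 CPM in KI and 13.9 ± 3.10 CPM in WT mesenchymal cells, and 0.986 ± 0.314 CPM in KI and 1.89 ± 0.741 CPM in WT hematopoietic cells. Both were called higher in mesenchymal cells of each genotype. Macrophage metalloelastase (Mmp12) averaged 0.231 ± 0.209 CPM in KI and 0.660 ± 0.645 CPM in WT mesenchymal cells, and 25.9 ± 20.1 CPM in KI and 48.8 ± 23.6 CPM in WT hematopoietic cells. Mmp27, a little-studied relative of the stromelysins, averaged 0.0350 ± 0.0387 CPM in KI and 0.145 ± 0.174 CPM in WT mesenchymal cells, and 4.26 ± 1.47 CPM in KI and 13.3 ± 4.46 CPM in WT hematopoietic cells. Together with Mmp8 these were the 3 tested members lower in mesenchymal cells of both genotypes, with log2 fold changes between -9.60 and -6.18. These sizes rest on few mesenchymal counts. Mmp8 had 2 counts in all WT mesenchymal libraries together, with 5 libraries at 0. Its WT log2 fold change ran from -11.5 to -8.62 across the alternative settings. Mmp19 was called lower in mesenchymal than in hematopoietic cells of KI mice and was not called in WT, a contrast whose own test was not called (adjusted p = 0.123). Its means were 23.3 ± 4.02 CPM in KI and 21.96 ± 2.63 CPM in WT mesenchymal cells, and 31.7 ± 6.08 CPM in KI and 21.7 ± 1.96 CPM in WT hematopoietic cells.

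Of the 9 members in the cluster on chromosome 9 (9:7272514-7699585, GRCm38, 427072 bases), 5 stayed under 1 CPM in every group. The other 4 were Mmp13, which was higher in mesenchymal cells, and Mmp12, Mmp8 and Mmp27, which were higher in hematopoietic cells. Mmp12, the direct neighbour of Mmp13, stood at -6.18 on the log2 scale in WT mesenchymal cells relative to WT hematopoietic cells, where Mmp13 stood at 3.35.

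The ADAMTS genes of this class, apart from Adamts10, were called higher in mesenchymal cells of each genotype, though the calls of Adamts16 in both genotypes and of Adamts7 in KI were lost in some fits without 1 library. The procollagen N-propeptidases remove the amino-terminal propeptide of fibrillar procollagens. Adamts2, the main one in skin and bone, averaged 518 ± 45.7 CPM in KI and 434 ± 52.3 CPM in WT mesenchymal cells, and 59.5 ± 29.4 CPM in KI and 41.7 ± 16.6 CPM in WT hematopoietic cells. Adamts14 averaged 50.7 ± 10.9 CPM in KI and 23.8 ± 5.50 CPM in WT mesenchymal cells, and 6.26 ± 1.91 CPM in KI and 2.64 ± 1.35 CPM in WT hematopoietic cells. Per length of transcript, Adamts2 stood at 55.5 CPM per kilobase in KI and 46.5 CPM per kilobase in WT mesenchymal cells, and Adamts14 at 9.76 CPM per kilobase in KI and 4.57 CPM per kilobase in WT, so Adamts2 was the more abundant in both genotypes.

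The proteoglycan-cleaving ADAMTS enzymes cut aggrecan and versican. Adamts1 averaged 137 ± 19.2 CPM in KI and 176 ± 23.98 CPM in WT mesenchymal cells, and 10.7 ± 4.13 CPM in KI and 12.5 ± 6.23 CPM in WT hematopoietic cells. Adamts5, the major aggrecanase of mouse cartilage, averaged 151 ± 28.7 CPM in KI and 154 ± 21.7 CPM in WT mesenchymal cells, and 13.03 ± 5.35 CPM in KI and 11.02 ± 4.22 CPM in WT hematopoietic cells. Both were higher in mesenchymal cells by a log2 fold change of 3.56 or more in each genotype. Adamts4 averaged 34.8 ± 12.4 CPM in KI and 33.9 ± 11.9 CPM in WT mesenchymal cells, and 6.09 ± 3.30 CPM in KI and 4.53 ± 2.46 CPM in WT hematopoietic cells. Adamts9 averaged 43.1 ± 15.1 CPM in KI and 50.01 ± 20.2 CPM in WT mesenchymal cells, and 3.91 ± 1.63 CPM in KI and 4.84 ± 2.91 CPM in WT hematopoietic cells.

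Adamts12 and Adamts7 are among the enzymes known to cleave Comp. Adamts12 averaged 364 ± 87.1 CPM in KI and 410 ± 58.6 CPM in WT mesenchymal cells, and 39.3 ± 27.8 CPM in KI and 44.1 ± 18.4 CPM in WT hematopoietic cells. Adamts7 averaged 13.6 ± 3.67 CPM in KI and 11.9 ± 2.07 CPM in WT mesenchymal cells, and 9.55 ± 2.81 CPM in KI and 2.82 ± 0.823 CPM in WT hematopoietic cells. Per length, Adamts12 stood at 33.3 CPM per kilobase in KI mesenchymal cells and Adamts7 at 2.16 CPM per kilobase. Of the remaining ADAMTS genes, Adamts6 averaged 396 ± 108 CPM in KI and 167 ± 54.2 CPM in WT mesenchymal cells, and 53.0 ± 26.1 CPM in KI and 35.3 ± 18.4 CPM in WT hematopoietic cells. Adamts16 averaged 61.1 ± 69.9 CPM in KI and 33.3 ± 24.8 CPM in WT mesenchymal cells, and 12.8 ± 14.8 CPM in KI and 6.61 ± 7.90 CPM in WT hematopoietic cells, so its SD was above its mean in 3 of the groups. The population call of Adamts16 was lost in 3 of 24 fits without 1 library in KI (KI hematopoietic replicate 4 or 6 or KI mesenchymal replicate 4, adjusted p up to 0.101) and in 6 of 24 in WT (WT hematopoietic replicate 1, 2, 4, 5 or 6 or WT mesenchymal replicate 4, up to 0.0743), and in each genotype within file set 1 and without the count filter. That of Adamts7 in KI was lost in 3 of 24 (KI hematopoietic replicate 6 or KI mesenchymal replicate 3 or 5, adjusted p up to 0.0665) and within file set 1. Adamts10, which acts on fibrillin microfibrils, was not called between the populations in either genotype. It averaged 38.9 ± 3.11 CPM in KI and 52.9 ± 6.66 CPM in WT mesenchymal cells, and 40.1 ± 5.75 CPM in KI and 47.6 ± 7.88 CPM in WT hematopoietic cells.

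RNA of stromal markers was present in hematopoietic libraries. Its share was estimated as the median, over 19 stromal markers, of the level in a library relative to the mean of mesenchymal libraries of the same genotype, and came to 10.5% ± 5.83 in KI and 9.10% ± 4.31 in WT libraries (SD, n = 6; 2-sided exact permutation test, p = 0.597). The reverse share of leukocyte RNA in mesenchymal libraries was 0.552% ± 0.310 in KI and 0.419% ± 0.152 in WT (15 markers, exact permutation p = 0.368). Most mesenchymal members had hematopoietic levels near the stromal share. Timp3, for instance, stood in KI and WT hematopoietic libraries at a median of 9.95% and 14.6% of its mesenchymal mean, Adamts2 at 9.48% and 8.68%, and Adamts1 at 7.33% and 6.65%. Mmp19, Adamts10, Mmp14, Adamts7, Timp2, Timp1 and Adamts3 stood above it in all 6 libraries of each genotype, Timp1 only narrowly, at medians of 12.98% in KI and 10.9% in WT. The share was highest in KI replicate 3 (21.6%) and WT replicate 3 (17.5%), the only hematopoietic libraries above 15%, and without them the same 5 members were called between genotypes as with them. In a bulk sample, fewer cells of a type and less RNA per cell cannot be told apart.

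**Figure D2:**
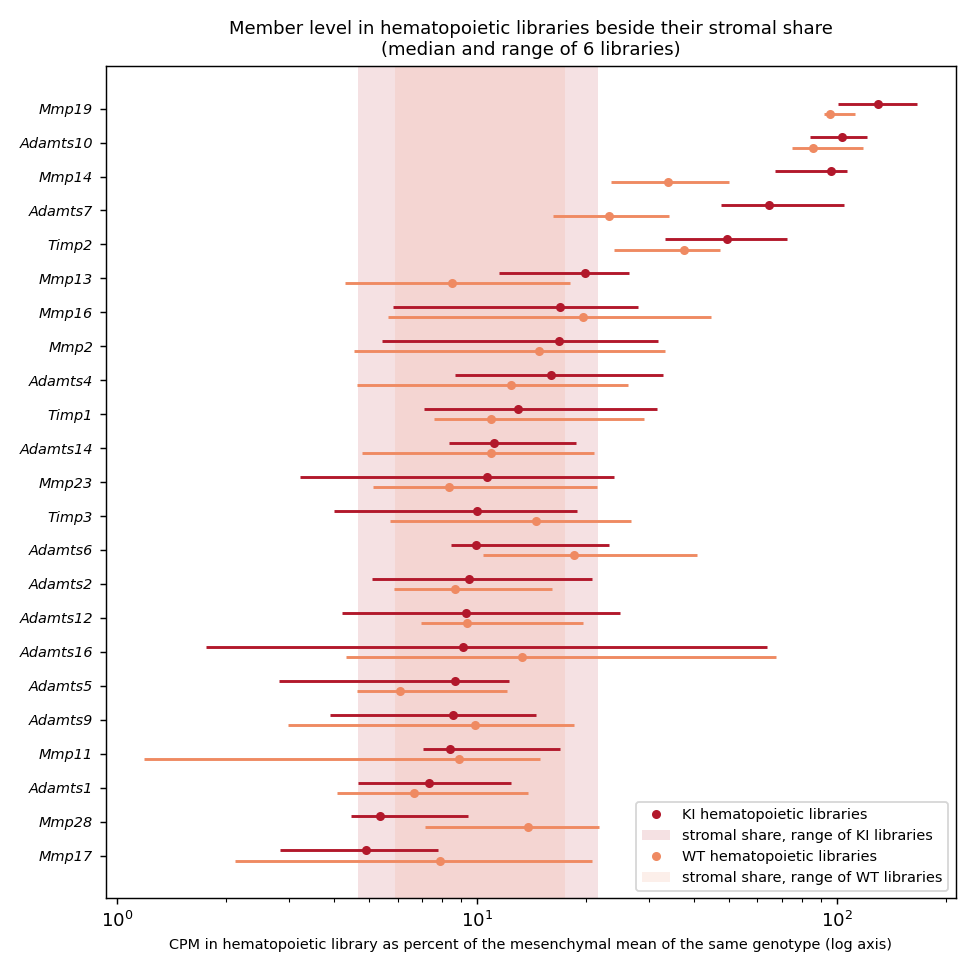
CPM of mesenchymal and shared members in each hematopoietic library as a percentage of the mesenchymal mean of the same genotype (median and range of 6 libraries, logarithmic axis), with shaded bands for the range of the estimated stromal share. Mmp14 and Adamts7 lie to the right of the bands in KI and further left in WT, at medians of 96.0% and 33.8% for Mmp14.

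In hematopoietic cells, KI differed from WT by more Mmp14, Adamts7, Adamts14 and Mmp19 and by less Mmp27. Of the 29 members tested there, 4 were higher and 1 was lower in KI, where 9.01% of all 14030 genes tested were called higher and 6.89% lower. The median log2 fold change of KI over WT was 0.22 over these members and -0.00479 over all tested genes. Markers of osteoclasts, the bone-resorbing cells of the macrophage lineage, moved with genotype as well. The 12 markers summed to between 2344 and 5503 CPM in KI and to between 901 and 2238 CPM in WT hematopoietic libraries, with 10 of the 12 called higher. Of the 16 leukocyte markers, 15 were tested, and 2 were higher and 5 lower, with sums of 20010 to 29100 CPM in KI and 14070 to 22040 CPM in WT. Of the 7 osteoblast markers, 5 were tested and 3 were lower, with sums of 74.8 to 197 CPM in KI and 102.5 to 725 CPM in WT, and 1 of 4 tested chondrocyte markers was lower. The part of these markers in the member differences was not tested.

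Mmp14 (ENSMUSG00000000957, 14:54431612-54445364, plus strand) had a lowest, median and highest level of 474, 678 and 753 CPM in KI hematopoietic libraries, against 173, 248.8 and 367 CPM in WT. Every KI library was above every WT library. The log2 fold change was 1.42 ± 0.18 (SE; edgeR adjusted p = 0.000266), and within the 2 file sets it was 1.24 and 1.61, with adjusted p values of 0.0567 and 0.0154. KI hematopoietic cells thereby stood near the mesenchymal level, at a median of 96.0% of it against 33.8% in WT, and Mmp14 was not called between mesenchymal and hematopoietic cells in KI (log2 fold change 0.10 ± 0.18, adjusted p = 0.637).

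Adamts7 (ENSMUSG00000032363, 9:90163069-90208071, plus strand) had a lowest, median and highest level of 6.48, 8.79 and 14.2 CPM in KI hematopoietic libraries, against 1.94, 2.77 and 4.07 CPM in WT, again without overlap. Its log2 fold change of 1.77 ± 0.17 (adjusted p = 5.34e-05) was 1.78 within each file set, and it was the only member called in hematopoietic cells under every alternative setting listed below. Adamts7 shares 1.94% of its exon bases with Tbc1d2b, which was itself higher in KI hematopoietic cells (log2 fold change 0.48 ± 0.09, adjusted p = 0.00220).

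Adamts14 (ENSMUSG00000059901, 10:61197112-61273438, minus strand) had a lowest, median and highest level of 4.22, 5.65 and 9.51 CPM in KI hematopoietic libraries, against 1.14, 2.59 and 5.01 CPM in WT, so the groups overlapped. Its log2 fold change was 1.30 ± 0.23 (adjusted p = 0.00212) and 1.13 and 1.51 within the file sets (adjusted p = 0.0888 and 0.0801). These levels were close to the stromal share, at a median of 11.1% of the mesenchymal mean in KI and 10.9% in WT, and with that share subtracted Adamts14 was left untested by the count filter. Mmp19 (ENSMUSG00000025355, 10:128790910-128800824, plus strand), a broad-spectrum protease also found in myeloid cells, had levels of 23.4, 30.2 and 38.8 CPM in KI hematopoietic libraries, against 20.1, 20.9 and 24.6 CPM in WT. Of the 6 KI libraries, 5 were above the highest WT library. The fitted log2 fold change was 0.56 ± 0.11 (adjusted p = 0.00493) and 0.54 and 0.60 within the file sets (adjusted p = 0.0705 and 0.174). Mmp19 shares 28.3% of its exon bases with other genes, of which Tmem198b averaged 4.77 ± 0.849 CPM in KI and 4.08 ± 1.07 CPM in WT hematopoietic cells and was not called (adjusted p = 0.439).

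Mmp27 (ENSMUSG00000070323, 9:7571396-7581885, plus strand) was the 1 member that fell among those passing the count filter. Its lowest, median and highest levels were 2.62, 4.13 and 6.72 CPM in KI hematopoietic libraries, against 6.99, 14.2 and 17.95 CPM in WT, and the groups did not overlap. The log2 fold change was -1.63 ± 0.28 (adjusted p = 0.00163) and -1.35 and -1.88 within the file sets (adjusted p = 0.0876 and 0.0503). Mmp12 and Mmp8 of the same cluster had fitted log2 fold changes of -0.90 ± 0.49 and -0.77 ± 0.48 but were not called (adjusted p = 0.260 and 0.323).

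**Figure D3:**
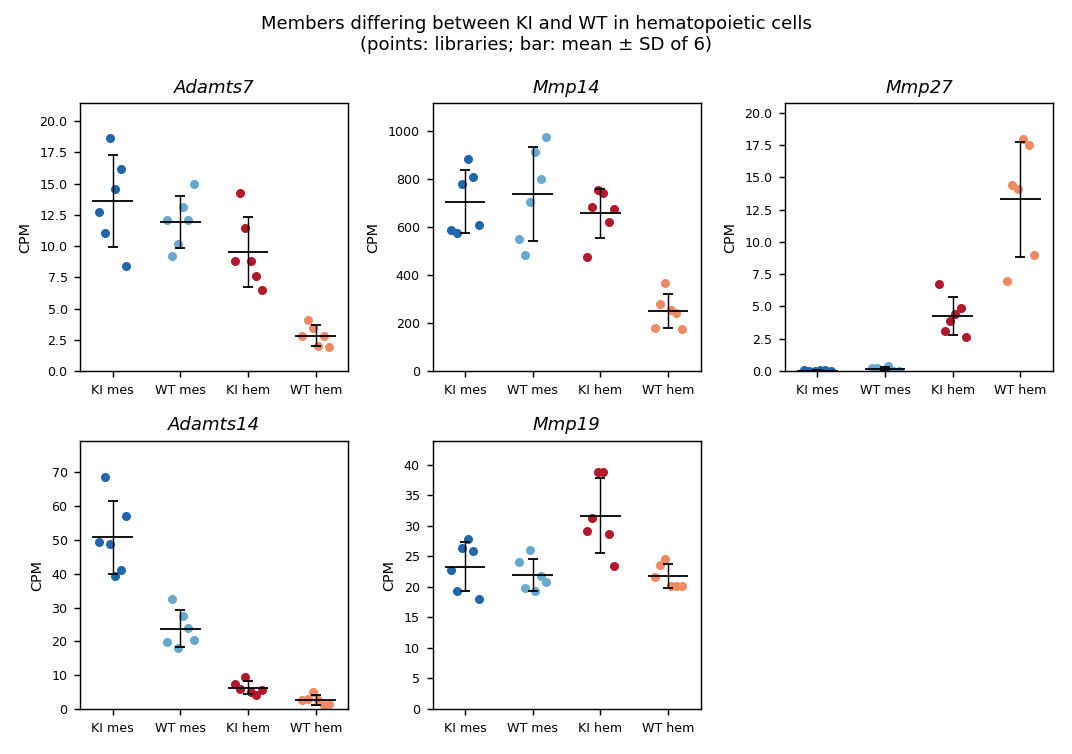
CPM of the 5 members called between KI and WT hematopoietic cells, in each library of the 4 groups, with mean and SD of 6 libraries. The KI hematopoietic points of Mmp14 lie between 474 and 753 CPM, above all WT points, and those of Mmp27 between 2.62 and 6.72 CPM, below all WT points.

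The other 24 tested members were not called in hematopoietic cells. Nearest to the threshold were Timp2 (log2 fold change 0.62 ± 0.21, adjusted p = 0.0603), Mmp28 (-0.86 ± 0.31, adjusted p = 0.0806) and Adamts6 (0.64 ± 0.23, adjusted p = 0.0868). Timp3 had a log2 fold change of 0.61 ± 0.24 (adjusted p = 0.122), and Adamts2 of 0.51 ± 0.20 (adjusted p = 0.102).

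In mesenchymal cells, KI differed from WT by more of the inhibitor Timp3, more of the procollagen propeptidases Adamts14 and Adamts3, more Adamts6 and Mmp17, and by less Comp and Adamts10. Of the 27 members tested, 5 were higher and 2 lower in KI, where 3.44% of all 13867 genes tested were called higher and 3.83% lower. The median log2 fold change of KI over WT was 0.0294 over these members and 0.0011 over all tested genes. Markers of mesenchymal lineages moved with genotype. The 7 osteoblast markers summed to between 461 and 985 CPM in KI and to between 1137 and 3086 CPM in WT libraries, with 5 called lower. The 6 adipocyte markers summed to between 57.4 and 186 CPM in KI and to between 223 and 535 CPM in WT libraries, with 3 called lower. Of the 11 chondrocyte markers, 7 were tested and none was called, and the 11 summed to between 273 and 1763 CPM in KI and to between 710 and 1725 CPM in WT libraries. The part of these lineages in the member differences was not tested.

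Timp3 (ENSMUSG00000020044, 10:86300372-86349506, plus strand) had a lowest, median and highest level of 2645, 3352 and 3831 CPM in KI mesenchymal libraries, against 1606, 1687 and 2048 CPM in WT. Every KI library was above every WT library. Its log2 fold change was 0.92 ± 0.09 (adjusted p = 0.000135), with 1.01 and 0.82 within the file sets (adjusted p = 0.0173 and 0.0384), and it was the only member called in mesenchymal cells under every alternative setting. Timp3 lies within Syn3, which runs on the other strand, and shares 21.3% of its exon bases with it. Syn3 averaged 82.6 ± 7.90 CPM in KI and 33.9 ± 2.48 CPM in WT mesenchymal cells (log2 fold change 1.29 ± 0.07, adjusted p = 3.98e-07), and without the strand setting of the counting the reads of the 2 genes in the shared bases cannot be told apart.

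Timp1 and Timp2 were not called in mesenchymal cells, with log2 fold changes of 0.03 ± 0.19 (adjusted p = 0.948) and 0.12 ± 0.08 (adjusted p = 0.431). Timp3 accordingly made up a median of 56.2% of the summed Timp level per kilobase in KI, between 49.1% and 62.2%, against 41.1% in WT, between 36.6% and 47.9%. The summed Timp level per kilobase, divided by that of all Mmp and Adamts members, ran from 1.01 to 1.66 with a median of 1.31 in KI mesenchymal libraries, against 0.742 to 1.02 with a median of 0.834 in WT. In hematopoietic libraries the ratio was 0.601 to 0.948 with a median of 0.743 in KI, against 0.759 to 0.883 with a median of 0.808 in WT. Mmp9, left out of the members, is not in these ratios. Hematopoietic Timp3 stood at a median of 9.95% of its mesenchymal mean in KI and 14.6% in WT. The part of stromal RNA in the hematopoietic ratio was not tested.

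Comp (ENSMUSG00000031849, 8:70373558-70382066, plus strand), a pentameric glycoprotein of cartilage and tendon matrix, had a lowest, median and highest level of 0.162, 0.318 and 0.774 CPM in KI mesenchymal libraries, against 2.02, 2.92 and 3.56 CPM in WT. No KI library reached the lowest WT library. Counts of Comp were low, at 2 to 12 per KI library and 26 to 53 per WT library, so the fitted size rests on few KI counts. The log2 fold change was -2.91 ± 0.33 (adjusted p = 0.000234) and -3.23 and -2.68 within the file sets (adjusted p = 0.0148 and 0.0579). In hematopoietic cells Comp averaged 2.11 ± 0.960 CPM in KI and 1.70 ± 0.741 CPM in WT and was not called (adjusted p = 0.538). Comp was therefore lower in mesenchymal than in hematopoietic cells of KI mice (log2 fold change -2.42 ± 0.39, adjusted p = 5.84e-06) and higher in mesenchymal cells of WT mice (0.79 ± 0.33, adjusted p = 0.0345). The WT call was lost in 7 of 24 fits without 1 library, namely WT hematopoietic replicate 2, 4, 5 or 6 or WT mesenchymal replicate 1, 5 or 6 (adjusted p up to 0.0835), and within file set 1 (log2 fold change 0.37, adjusted p = 0.466).

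The procollagen propeptidase Adamts14 had a lowest, median and highest level of 39.4, 49.1 and 68.6 CPM in KI mesenchymal libraries, against 18.04, 22.2 and 32.6 CPM in WT, without overlap. KI exceeded WT by a log2 fold change of 1.09 ± 0.16 (adjusted p = 0.00167), and by 1.23 and 0.94 within the file sets (adjusted p = 0.0456 and 0.0683). Among members passing the count filter, Adamts14 was the only one called in both populations. Its hematopoietic levels were close to the stromal share, and with that share subtracted it was left untested there. Adamts3 (ENSMUSG00000043635, 5:89677087-89883334, minus strand) had levels of 6.197, 8.38 and 9.48 CPM in KI, against 3.13, 5.001 and 7.59 CPM in WT, and the groups overlapped. Its log2 fold change of 0.70 ± 0.19 (adjusted p = 0.0422) was 1.15 in file set 1 (adjusted p = 0.0309) and 0.28 in file set 2 (adjusted p = 0.696). The Adamts3 call was lost in 9 of the 12 fits that each left out 1 library, up to an adjusted p of 0.0921, and held only without WT replicate 4, KI replicate 5 or KI replicate 6. Adamts2, the third propeptidase, was not called (log2 fold change 0.26 ± 0.10, adjusted p = 0.114).

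Adamts6 (ENSMUSG00000046169, 13:104287835-104496695, plus strand), an ADAMTS linked in mice to heart development and fibrillin microfibrils, had a lowest, median and highest level of 295, 349 and 563 CPM in KI mesenchymal libraries, against 99.7, 178 and 246 CPM in WT, without overlap. Its log2 fold change was 1.23 ± 0.22 (adjusted p = 0.00626) and 1.36 and 1.09 within the file sets (adjusted p = 0.0832 and 0.120). Adamts10 (ENSMUSG00000024299, 17:33524204-33553782, plus strand), its closest relative, went the other way, with 33.5, 39.9 and 41.6 CPM in KI against 42.1, 55.0 and 58.9 CPM in WT. All KI libraries were below all WT libraries. For Adamts10 the log2 fold change was -0.44 ± 0.09 (adjusted p = 0.0129) and -0.34 and -0.54 within the file sets (adjusted p = 0.249 and 0.105).

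Mmp17 (ENSMUSG00000029436, 5:129584169-129611099, plus strand), a GPI-anchored membrane protease, had a lowest, median and highest level of 35.1, 43.8 and 51.8 CPM in KI mesenchymal libraries, against 19.4, 27.2 and 32.5 CPM in WT, without overlap. For Mmp17 the log2 fold change was 0.71 ± 0.14 (adjusted p = 0.00960) and 0.62 and 0.80 within the file sets (adjusted p = 0.128 and 0.151). Mmp14 and Mmp2 were not called in mesenchymal cells, with log2 fold changes of -0.02 ± 0.13 (adjusted p = 0.940) and 0.45 ± 0.24 (adjusted p = 0.283).

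**Figure D4:**
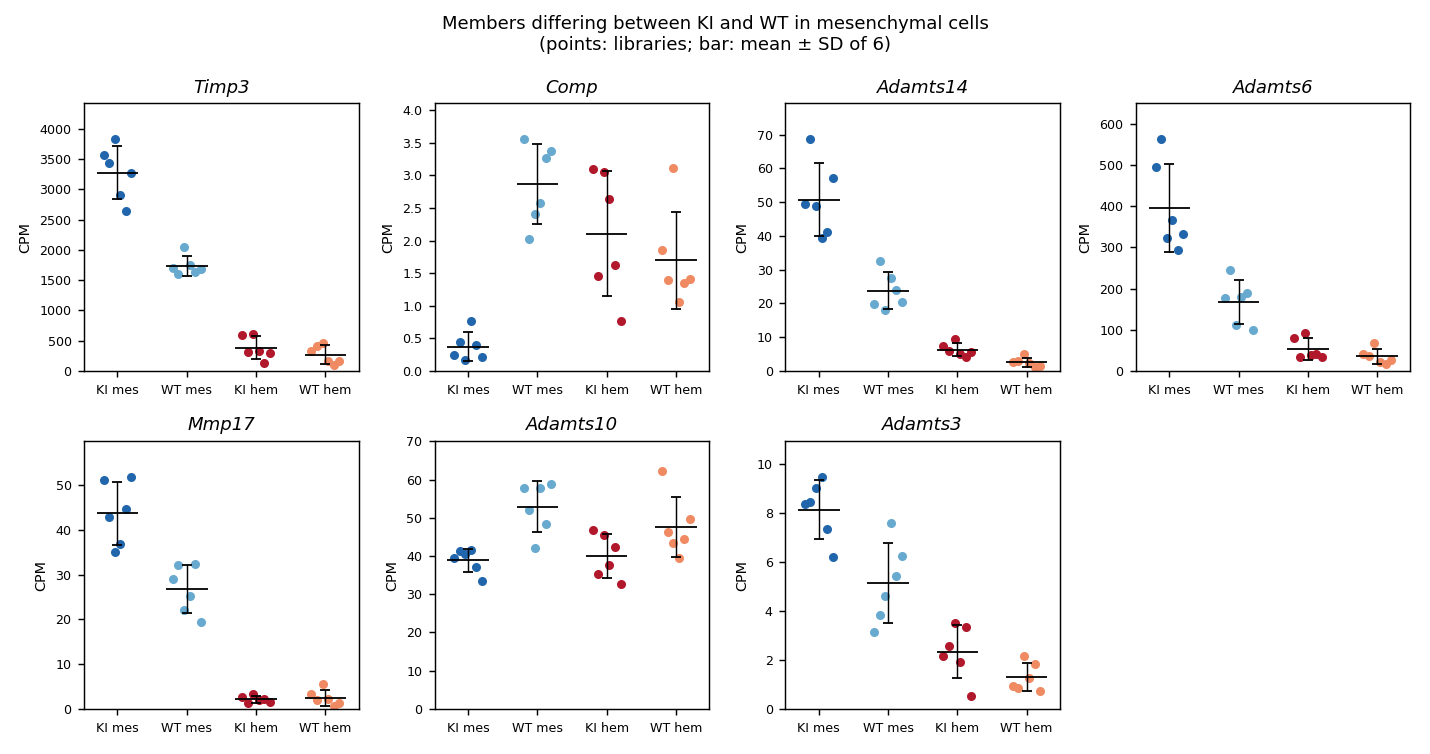
CPM of the 7 members called between KI and WT mesenchymal cells, in each library of the 4 groups, with mean and SD of 6 libraries. Timp3, Adamts14, Adamts6 and Mmp17 have all KI mesenchymal points above all WT ones, Comp and Adamts10 have them below, and Adamts3 overlaps.

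Among the 20 tested members that were not called in mesenchymal cells, the fitted difference was largest for Mmp13. The collagenase had a lowest, median and highest level of 47.8, 101 and 290.3 CPM in KI libraries, against 202, 360.5 and 629 CPM in WT, and its log2 fold change of -1.50 ± 0.45 missed the threshold (adjusted p = 0.0701). DESeq2 and the single fit of all 24 libraries called it. That single fit no longer called Mmp17 (adjusted p = 0.0895) or Adamts3 (adjusted p = 0.192) in mesenchymal cells. Adamts1 had a log2 fold change of -0.35 ± 0.11 (adjusted p = 0.0626). The aggrecanases Adamts4 and Adamts5 had log2 fold changes of 0.08 ± 0.18 and -0.02 ± 0.13, and the Comp-cleaving Adamts7 and Adamts12 of 0.20 ± 0.18 and -0.16 ± 0.13, with adjusted p values of 0.509 or more.

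The difference between the genotype effects, taken as the effect in mesenchymal minus that in hematopoietic cells, was called for 4 of 32 members. It was below 0 for Comp, Mmp14 and Adamts7 and above 0 for Mmp28, where 4.36% of all 15389 genes were called below and 2.92% above 0. For Mmp14 it was -1.44 ± 0.26 on the log2 scale (adjusted p = 0.00105), for Adamts7 -1.58 ± 0.29 (adjusted p = 0.00123) and for Comp -3.21 ± 0.51 (adjusted p = 0.000295). The genotype effects on Mmp14, Adamts7 and Comp thus differed between the populations by more than the replicate spread. For Mmp28 it was 1.04 ± 0.30 (adjusted p = 0.0336), although the separate fits of each population called Mmp28 in neither. The fit of all 24 libraries, which gave the interaction, did call Mmp28 between genotypes in hematopoietic cells. The interaction call of Mmp28 was lost in 10 of 24 fits that left out 1 library, up to an adjusted p of 0.0719. Those fits were without WT hematopoietic replicate 1, 3 or 6, KI hematopoietic replicate 1, 2 or 5, WT mesenchymal replicate 3 or 6, or KI mesenchymal replicate 4 or 5. Within file sets 1 and 2 the difference was -1.03 and -1.83 for Mmp14 (adjusted p = 0.235 and 0.0105), -1.29 and -1.81 for Adamts7 (adjusted p = 0.117 and 0.0443), -3.47 and -3.10 for Comp (adjusted p = 0.0359 and 0.0655) and 1.39 and 0.69 for Mmp28 (adjusted p = 0.130 and 0.598). For Adamts14, Timp3 and Adamts6 the difference was not called (adjusted p = 0.813, 0.673 and 0.392).

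**Figure D5:**
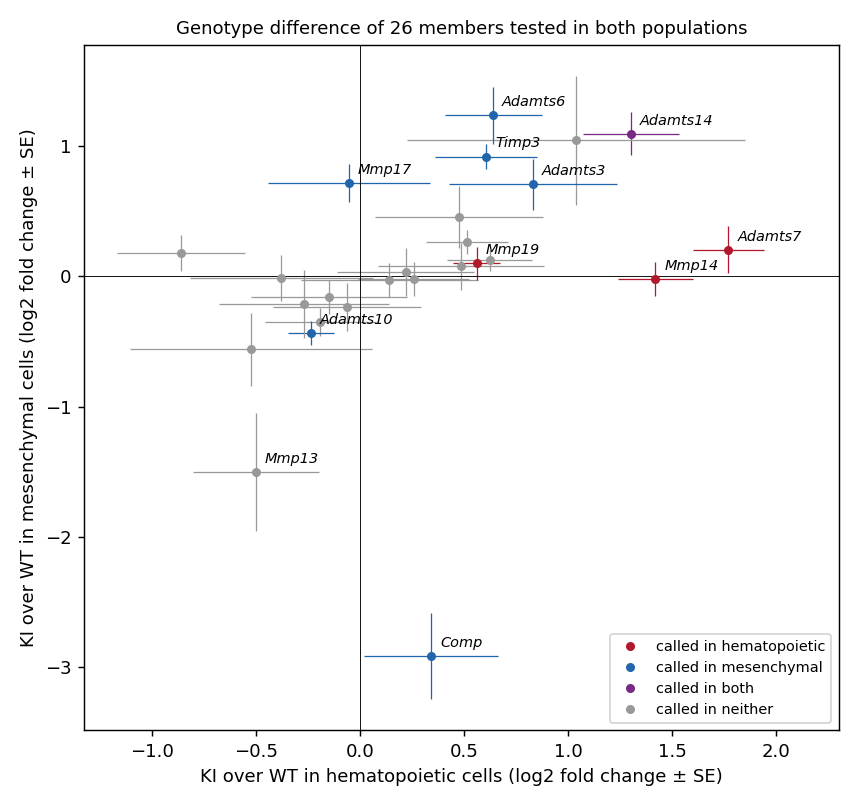
Log2 fold change of KI over WT in hematopoietic cells (horizontal) and in mesenchymal cells (vertical) for the 26 members tested in both, with SE bars and colours for the comparison in which a member was called. Mmp14 and Adamts7 lie far to the right near a vertical value of 0, Comp lies at -2.91 on the vertical axis, and Adamts14 is at upper right.

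Genes that work with these proteases were read from lists of related families. Of 12 activators, inhibitors and clearance receptors of metalloproteases, 9 were tested in hematopoietic cells, and 3 were higher and 1 was lower in KI, where 9.01% and 6.89% of all genes tested were called in these directions. Sdc1 (syndecan-1), a cell-surface proteoglycan shed by metalloproteases, had a lowest, median and highest level of 81.9, 159 and 246 CPM in KI, against 15.8, 23.5 and 38.0 CPM in WT (log2 fold change 2.78 ± 0.26, adjusted p = 5.51e-05). Cd44, the hyaluronan receptor that holds MMPs at the cell surface, had a log2 fold change of 0.66 ± 0.12 (adjusted p = 0.00303). The proprotein convertase Pcsk6 had one of -3.39 ± 0.55 (adjusted p = 0.00136). In mesenchymal cells 3 of 10 tested genes of this list were higher and 2 lower (Reck, a membrane-anchored MMP inhibitor, and Pcsk6, named after their values were seen), against 3.44% and 3.83% of all genes. The higher ones were Cd44 at 0.73 ± 0.13 (adjusted p = 0.00419), Sdc1 at 0.50 ± 0.11 (adjusted p = 0.0163) and the clearance receptor Lrp1 at 0.35 ± 0.09 (adjusted p = 0.0292) on the log2 scale. The Lrp1 call was lost in 8 of 12 fits without 1 library and held without WT replicate 2, KI replicate 1, KI replicate 4 or KI replicate 6.

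Of 12 membrane ADAM proteases, 10 were tested in each population, and 2 were lower in KI and none higher in each, against 6.89% of all genes lower in hematopoietic and 3.83% in mesenchymal cells. In hematopoietic cells these were Adam22 (log2 fold change -0.88 ± 0.15, adjusted p = 0.00142) and Adam19 (-0.45 ± 0.13, adjusted p = 0.0310). In mesenchymal cells they were Adam23 (-1.37 ± 0.16, adjusted p = 0.000347) and Adam17, the TNF-converting sheddase (-0.30 ± 0.08, adjusted p = 0.0390). Adam22 and Adam23 are members without protease activity. The Adam19 call was lost in 8 of 12 fits without 1 library and held without WT replicate 1, 5 or 6 or KI replicate 3, and the Adam17 call in 10 of 12, holding without WT replicate 2 or KI replicate 5.

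Of 10 genes of plasminogen activation, 8 were tested in each population. In hematopoietic cells 1 was lower in KI and none higher, where 6.89% and 9.01% of all genes were called in these directions. In mesenchymal cells 2 were higher and 1 was lower, against 3.44% and 3.83% of all genes. The activator urokinase (Plau) was lower in KI hematopoietic cells (log2 fold change -0.76 ± 0.17, adjusted p = 0.00899). In KI mesenchymal cells thrombomodulin (Thbd, 1.058 ± 0.16, adjusted p = 0.00161) and the urokinase receptor Plaur (0.48 ± 0.13, adjusted p = 0.0338) were higher and the inhibitor Serpine2 was lower (-0.90 ± 0.14, adjusted p = 0.00228). The Plaur call was lost in 7 of 12 fits without 1 library and held without WT replicate 1 or 3 or KI replicate 2, 4 or 6.

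Of 18 proteoglycan and glycoprotein substrates, 14 were tested in hematopoietic cells, where 9.01% of all genes tested were called higher in KI. Among the 14, Vcan (versican) alone was called higher (log2 fold change 0.93 ± 0.29, adjusted p = 0.0469). That call was lost in 10 of 12 fits without 1 library and held without WT replicate 3 or KI replicate 1. With the stromal share subtracted its log2 fold change was 1.42 (adjusted p = 0.544). In mesenchymal cells 16 were tested, and 2 were higher and 2 lower, where 3.44% and 3.83% of all genes were called. Vcan was higher at 0.59 ± 0.15 (adjusted p = 0.0263), perlecan (Hspg2) was higher at 0.37 ± 0.09 (adjusted p = 0.0240), and Fbn2, a fibrillin, was lower at -1.21 ± 0.25 (adjusted p = 0.0155) on the log2 scale. The Vcan call there was lost in 7 of 12 fits without 1 library and held without WT replicate 4, 5 or 6 or KI replicate 2 or 6, and the Hspg2 call was lost in 5, namely without WT replicate 1 or 6 or KI replicate 1, 2 or 5. Of 7 ADAMTS-like proteins, which lack the protease domain, 5 were tested. Against the 9.01% of all genes called higher in KI hematopoietic cells, Adamtsl1 was the 1 called higher there (1.44 ± 0.36, adjusted p = 0.0173). With the stromal share subtracted its log2 fold change was 1.57 (adjusted p = 0.178). No astacin or procollagen C-proteinase (4 tested of 7) was called in either population, and no thrombospondin or matrilin was called (4 tested in hematopoietic and 6 in mesenchymal cells, of 8).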

How the data were processed

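RNA of 24 libraries was measured after ribosomal RNA depletion with a stranded, paired-end protocol, per the labels' protocols. The deposited values are raw read counts per gene, 1 table per library. Per the submitters' processing notes, the build was GRCm38 (mm10) and the tools included HTSeq 0.9.1, DESeq2 1.20.0, MultiQC and FastQC 0.11.7. Which aligner, annotation release and strand option produced the counts is not given in the sources used here. Unstranded counting would mix reads of overlapping genes.

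Gene names and positions came from GENCODE M21, which held 54165 of the 54232 identifiers, and promoter windows from RefSeq (GRCm38.p6). In R 4.3.3, edgeR 4.0.16 kept genes by filterByExpr with a count floor of 10 and a total floor of 15, applied TMM factors and ran the robust quasi-likelihood test with the file set as a term. KI was compared with WT in the 12 libraries of each population, and the population and interaction contrasts came from all 24. The interaction is the genotype effect in mesenchymal minus that in hematopoietic cells. The procedure was also run on simulated counts with known changes. Those counts held no file set effect, no pairing and no RNA of the other population, so the run does not cover these.

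Groups come from the sample titles and file sets from the deposited names, since no label states a batch. No replicate pair agreed within sampling noise. Members called in a genotype comparison are named with full statistics, other members averaging 10 CPM or more with group means, and up to 3 called genes of each related list by smallest adjusted p. The members and lists were chosen with earlier results of these data known. Alternatives tried were DESeq2 1.42.0, RLE scaling, no count filter, no file set term, each file set alone, a replicate block, 1 fit of all libraries, subtraction of the other population's RNA and leaving out each library, and, chosen after the shares were seen, leaving out the hematopoietic libraries with a stromal share above 15%.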

Additional observations from a re-analysis of the deposited data

Results flagged for a closer look

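In 6 of 80 sets of 1 member in 1 group, a single library stood far from the other 5 by Dixon's criterion (critical value 0.625). Chance alone flags about 1 set in 20. Adamts1 reached 174 CPM in KI mesenchymal replicate 5, where the next library had 137 CPM, and 24.3 CPM in WT hematopoietic replicate 3, where the next had 12.6 CPM. Adamts12 reached 80.4 CPM in the same WT hematopoietic replicate 3, with 43.2 CPM in the next library. That library was 1 of the 2 hematopoietic libraries with an estimated stromal share above 15%, at 17.5%. Adamts16 reached 199 CPM in KI mesenchymal replicate 4, with 64.1 CPM in the next library. Mmp12 reached 65.5 CPM in KI hematopoietic replicate 6, with 24.99 CPM in the next library. Timp3 reached 2048 CPM in WT mesenchymal replicate 3, with 1746 CPM in the next library, and this library was still below the lowest KI mesenchymal library at 2645 CPM.

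The genotype effect differed between the populations by the interaction test for 4 members, in log2 units of the effect in mesenchymal minus that in hematopoietic cells. The difference was -1.58 for Adamts7 (edgeR adjusted p = 0.00123), -3.21 for Comp (0.000295), -1.44 for Mmp14 (0.00105) and 1.04 for Mmp28 (0.0336).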

How the results depend on the processing

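None of the members called in a genotype or population comparison changed sign under the alternatives. All but 7 of 109 alternative values stayed past the threshold for the 5 members called in hematopoietic cells. The same held for all but 21 of 154 for the 7 called in mesenchymal cells, and all but 17 of 128 for the 4 interaction calls. A setting in which the count filter left a member untested is not counted among these values. That was so for Adamts14 in hematopoietic cells with the stromal share subtracted, and for Adamts15 between populations within file set 2. For the 29 members called between populations in each genotype, all but 13 of 927 in KI and 17 of 927 in WT did, the exceptions being Adamts7, Adamts15, Adamts16, Mmp19 and Comp. The number of members called in hematopoietic cells, 5 in the report, was 9 with DESeq2, 9 in 1 fit of all 24 libraries, 2 in file set 1 alone and 2 in file set 2 alone. In mesenchymal cells the number, 7 in the report, was 11 with DESeq2 and 1 in file set 2 alone. The interaction count, 4 in the report, was 1 in file set 1 and 2 in file set 2, each of which holds 12 of the 24 libraries. These counts, and those below, are given without the share of all genes called in the same setting. They therefore do not tell a change in the members from a change in calls over all genes. DESeq2 added Adamts6, Timp2, Adamts15 and Adamts18 in hematopoietic cells and Adamts1, Mmp13, Adamts15 and Adamts18 in mesenchymal cells.

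Whether replicate numbers pair the samples was not settled. Correlations of same-numbered libraries, after removing group means, ran from 0.0881 to 0.492 between KI and WT hematopoietic cells. Between WT mesenchymal and WT hematopoietic cells they ran from -0.158 to 0.409. Every pair of groups held a same-numbered pair with a correlation of 0.1 or less. Between KI and WT hematopoietic cells, the same-numbered library was the best match for KI replicates 1, 3 and 6 (0.434, 0.492 and 0.418). For KI replicates 2, 4 and 5 it was not. The main fits had no pairing term, although both populations grew in mixed culture. A fit with a replicate block called 11 members in hematopoietic cells, adding Adamts2, Adamts6, Mmp12, Mmp13, Timp2 and Timp3, and 9 in mesenchymal cells, adding Adamts1 and Mmp13. Leaving out 1 library gave between 5 and 9 calls in hematopoietic cells (9 without KI replicate 6), 6 to 8 in mesenchymal cells and 3 to 5 for the interaction. The KI minus WT difference in stromal share, 1.41 percentage points, ranged from -0.802 without KI hematopoietic replicate 3 to 3.09 without WT hematopoietic replicate 3. Without the hematopoietic libraries above 15% stromal share, the same 5 members were called in hematopoietic cells and Mmp28 was lost from the interaction. Depth limits the 13 members under 1 CPM, which the filter left untested in the population and interaction fits.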

Other observations

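Adamts15 and Adamts18, both low in these cells, were left out of the genotype tests by the count filter. Adamts15, which cleaves versican and aggrecan, averaged 0.196 ± 0.251 CPM in KI and 1.78 ± 1.41 CPM in WT mesenchymal cells, and 0.0123 ± 0.0302 CPM in KI and 0.455 ± 0.302 CPM in WT hematopoietic cells (SD, n = 6). Adamts18 averaged 0.0866 ± 0.107 CPM in KI and 1.92 ± 1.81 CPM in WT mesenchymal cells, and 0.0257 ± 0.0630 CPM in KI and 0.771 ± 0.817 CPM in WT hematopoietic cells. Without the filter, edgeR called Adamts15 lower in KI mesenchymal (adjusted p = 7.62e-05) and KI hematopoietic cells (adjusted p = 0.00428), and Adamts18 likewise (adjusted p = 0.00696 and 0.0331). DESeq2 called both genes in both populations. The fitted sizes depend on the prior count and are not given.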
